A study of Mus musculus with 102 samples.

Results

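The axon guidance ligands and receptors of the adult mouse central nervous system were profiled here over 48 regions, in 96 microarrays. Genes were taken by name, as those whose symbol starts as that of an Eph receptor, an ephrin, a semaphorin, a plexin, a Slit, a Robo, a netrin or an Unc5 protein, or is Dcc, Nrp1 or Nrp2. The names matched 71 of the 18193 genes to which a probe set points alone, with 156 probe sets, and each gene was read from the probe set with the highest mean over the 48 regions. Of these, 68 genes belong to the families themselves: 9 EphA and 4 EphB receptors, 5 ephrin-A and 3 ephrin-B ligands, 7 secreted class 3 semaphorins, 13 semaphorins of classes 4 to 7, 9 plexins, 2 neuropilins, 3 Slits, 4 Robos, 4 netrins, and Dcc with 4 Unc5 receptors. The other 3, the antisense transcript Plxna4os1 and the genes Unc50 and Unc5cl, share only the spelling. Ephb2 was not analysed here.

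All tissue came from male Balb/c mice, labelled as 7 to 8 weeks old, kept in a light-dark cycle and sampled in that cycle or in constant darkness at 6 times 4 hours apart. Regions were punched from frozen slices, and the RNA of all 6 times was pooled for each region, so that no time of day can be read from the values. The procedure was carried out again from new mice for a further array, which gives 2 arrays for each region. The study took its regions in 4 sampling periods, and a difference given within sampling periods sets only regions of the same period against each other. Regions fell into the telencephalon (17), hypothalamus (12), thalamus with the habenula (6), mesencephalon (6), cerebellum (3), pons (2) and spinal cord (2), and the retina, pituitary and pineal gland, with 2 arrays each, were kept apart. There was no treatment, mutant or control group, and every comparison below is between regions.

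Punches followed their labels by markers where a list applied. All 7 dopaminergic neuron markers measured were higher in the ventral tegmental area (VTA) and the substantia nigra (SN) than in the other regions (median difference 4.12 and 4.36 on the log2 scale), and all 8 cerebellar markers were higher in the cerebellum (median 3.48). Markers of other cell types were also higher in some punches: all 12 leptomeningeal markers were higher in the supraoptic nucleus (SO, median 2.29) and in the median eminence (ME, median 1.98), 8 of 9 choroid plexus markers were higher in CA2/CA3 (median 1.80), and all 8 ependymal markers were higher in the medial preoptic area (MPA, median 2.53). Whether these cells belong to the region or to its neighbours was not tested. Array medians lay between 7.32 and 7.46. A punch holds many cell types, so a lower level can be fewer cells of a type or less RNA per cell, which cannot be told apart here.

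Axon guidance proteins steer growing nerve fibres by attraction and repulsion. Ephrins are ligands held on the cell surface, by a lipid anchor in class A and by a membrane-spanning segment in class B, and they bind Eph receptor tyrosine kinases on the neighbouring cell. Class 3 semaphorins are secreted and mostly act through a neuropilin joined to a plexin, whereas most other semaphorins are membrane proteins that bind plexins directly. Slits are secreted repellents that act on Robo receptors, and netrins are laminin-related cues that attract through Dcc and repel through Unc5 receptors. In the adult brain many of these genes stay active, and they are known there for roles at synapses, in blood vessels and in myelin.

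Promoter sequence is shown for 6 genes: Epha3, Epha4, Epha6 and Epha7, which are 4 of the 5 EphA receptors that were higher in the hippocampal fields, the ephrin ligand Efna5, which was low there, and Robo3, whose level was set apart in the habenula. Each run is the 250 bases before 1 start site of the gene in RefSeq on the GRCm38.p6 build, written 5′ to 3′ along the gene's strand. That start is the outer end of the annotated gene for Epha3 and Efna5, and lies inside it by 19 bases for Epha4, 65 for Epha7, 261 for Robo3 and 5380 for Epha6. Capitals mark GC boxes (GGGCGG, or CCGCCC on the other strand) and CCAAT boxes (CCAAT, or ATTGG on the other strand). Adjoining GC boxes can share bases, as a pair in Robo3 does.

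Epha3: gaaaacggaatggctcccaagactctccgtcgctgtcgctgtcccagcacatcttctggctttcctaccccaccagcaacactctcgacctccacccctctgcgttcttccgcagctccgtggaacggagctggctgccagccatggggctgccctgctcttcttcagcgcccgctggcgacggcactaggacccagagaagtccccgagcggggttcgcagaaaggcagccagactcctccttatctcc
Epha4: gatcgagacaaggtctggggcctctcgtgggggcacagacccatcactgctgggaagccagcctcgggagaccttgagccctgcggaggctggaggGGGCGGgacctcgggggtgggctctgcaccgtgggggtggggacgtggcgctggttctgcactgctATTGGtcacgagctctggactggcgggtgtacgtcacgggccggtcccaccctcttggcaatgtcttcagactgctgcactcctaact
Epha6: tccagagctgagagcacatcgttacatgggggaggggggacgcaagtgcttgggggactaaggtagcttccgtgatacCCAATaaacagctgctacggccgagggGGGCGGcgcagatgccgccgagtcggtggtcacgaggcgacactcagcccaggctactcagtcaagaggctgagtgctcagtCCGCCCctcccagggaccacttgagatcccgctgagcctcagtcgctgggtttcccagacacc
Epha7: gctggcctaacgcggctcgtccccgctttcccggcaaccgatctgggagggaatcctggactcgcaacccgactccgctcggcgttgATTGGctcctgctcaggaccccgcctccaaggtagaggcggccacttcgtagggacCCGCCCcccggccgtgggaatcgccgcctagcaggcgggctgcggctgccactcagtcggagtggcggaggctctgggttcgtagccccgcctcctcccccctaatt
Efna5: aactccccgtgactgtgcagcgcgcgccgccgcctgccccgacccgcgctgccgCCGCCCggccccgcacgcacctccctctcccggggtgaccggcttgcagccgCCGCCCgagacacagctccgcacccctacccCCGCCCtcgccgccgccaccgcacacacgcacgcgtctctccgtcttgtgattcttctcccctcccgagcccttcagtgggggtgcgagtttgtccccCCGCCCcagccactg
Robo3: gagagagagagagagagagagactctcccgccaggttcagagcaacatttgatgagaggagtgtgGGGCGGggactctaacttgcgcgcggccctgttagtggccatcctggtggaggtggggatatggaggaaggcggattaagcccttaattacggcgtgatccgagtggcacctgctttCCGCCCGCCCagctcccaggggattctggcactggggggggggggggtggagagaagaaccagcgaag

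These windows lay at chr16:63864176-63864425 (minus strand), chr1:77515089-77515338 (minus strand), chr16:60605532-60605781 (minus strand), chr4:28812881-28813130 (plus strand), chr17:62881318-62881567 (minus strand) and chr9:37433176-37433425 (minus strand), in the order shown. The Efna5 window held 4 GC boxes and no CCAAT box, and that of Robo3 held 3 GC boxes and no CCAAT box. The Epha4 and Epha7 windows each held 1 GC box and 1 CCAAT box, that of Epha6 held 2 and 1, and that of Epha3 held neither. Among the 58 of 68 family genes with a window in the table, 43 (74.1%) held a GC box, against 33.0% of the windows of all 27025 genes there. Their median GC content was 64.6% against 52%. The 27025 genes were taken whether or not the array measures them, and shares among array genes alone were not worked out. A CCAAT box was in 15 (25.9%) against 34.5%, a TATA box (TATAAA, either strand) in 2 (3.45%) against 13.0%, and a cAMP response element (TGACGTCA) in 1 (1.72%) against 1.60%. Letters that match a motif describe the sequence and are not a binding site.

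Levels are log2 array intensities, on which a difference of 1 is a 2-fold change, and a level of a gene is compared only with that of the same probe set in other regions. Nearly all family genes differed between regions: 67 of 68 passed the limma F test over the 48 regions at an adjusted p under 0.05, against 93.1% of all genes. Epha2, an Eph receptor best known from epithelia, was the exception (adjusted p = 0.12), with all of its regional means within 0.43. Beside genes in general, the families differed in the size of the differences more than in their presence. The range of a gene, its highest minus its lowest regional mean, had a median of 2.26 over the 68 genes and of 0.952 over all genes. A range of at least 2 was found for 38 family genes (55.9%) and for 16.6% of all genes, and one of at least 3 for 22 (32.4%) and 7.03%. Genes were not matched by level for this, and values near the floor of an array understate differences. The pooled SD of the 2 arrays of a region lay between 0.077 and 0.29 for these genes (median 0.135), so that most ranges were many times the replicate spread.

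Families differed in how far their members ranged. By the brightest probe sets, median ranges were 3.89 for EphA receptors, 3.12 for the 2 neuropilins, 3.08 for Slits and 2.80 for Robos. They were lowest for ephrin-A ligands (1.15), class 3 semaphorins (1.42) and Dcc with the Unc5 receptors (1.74). Other probe sets of Dcc (4.42 and 4.24), Sema3d (2.66) and Sema3f (2.615) ranged wider. The low places of class 3 semaphorins and of Dcc with the Unc5 receptors may therefore depend on the probe set used. Members of a family could differ widely. By the brightest probe sets, Epha7 ranged over 4.87 and Epha2 over 0.43, Sema3e over 4.80 and Sema3f over 0.75, and Robo3 over 4.59 and Robo4 over 0.56. The 3 genes that share only the spelling ranged over 0.65 (Plxna4os1), 0.74 (Unc50) and 0.84 (Unc5cl).

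**Figure D1:**
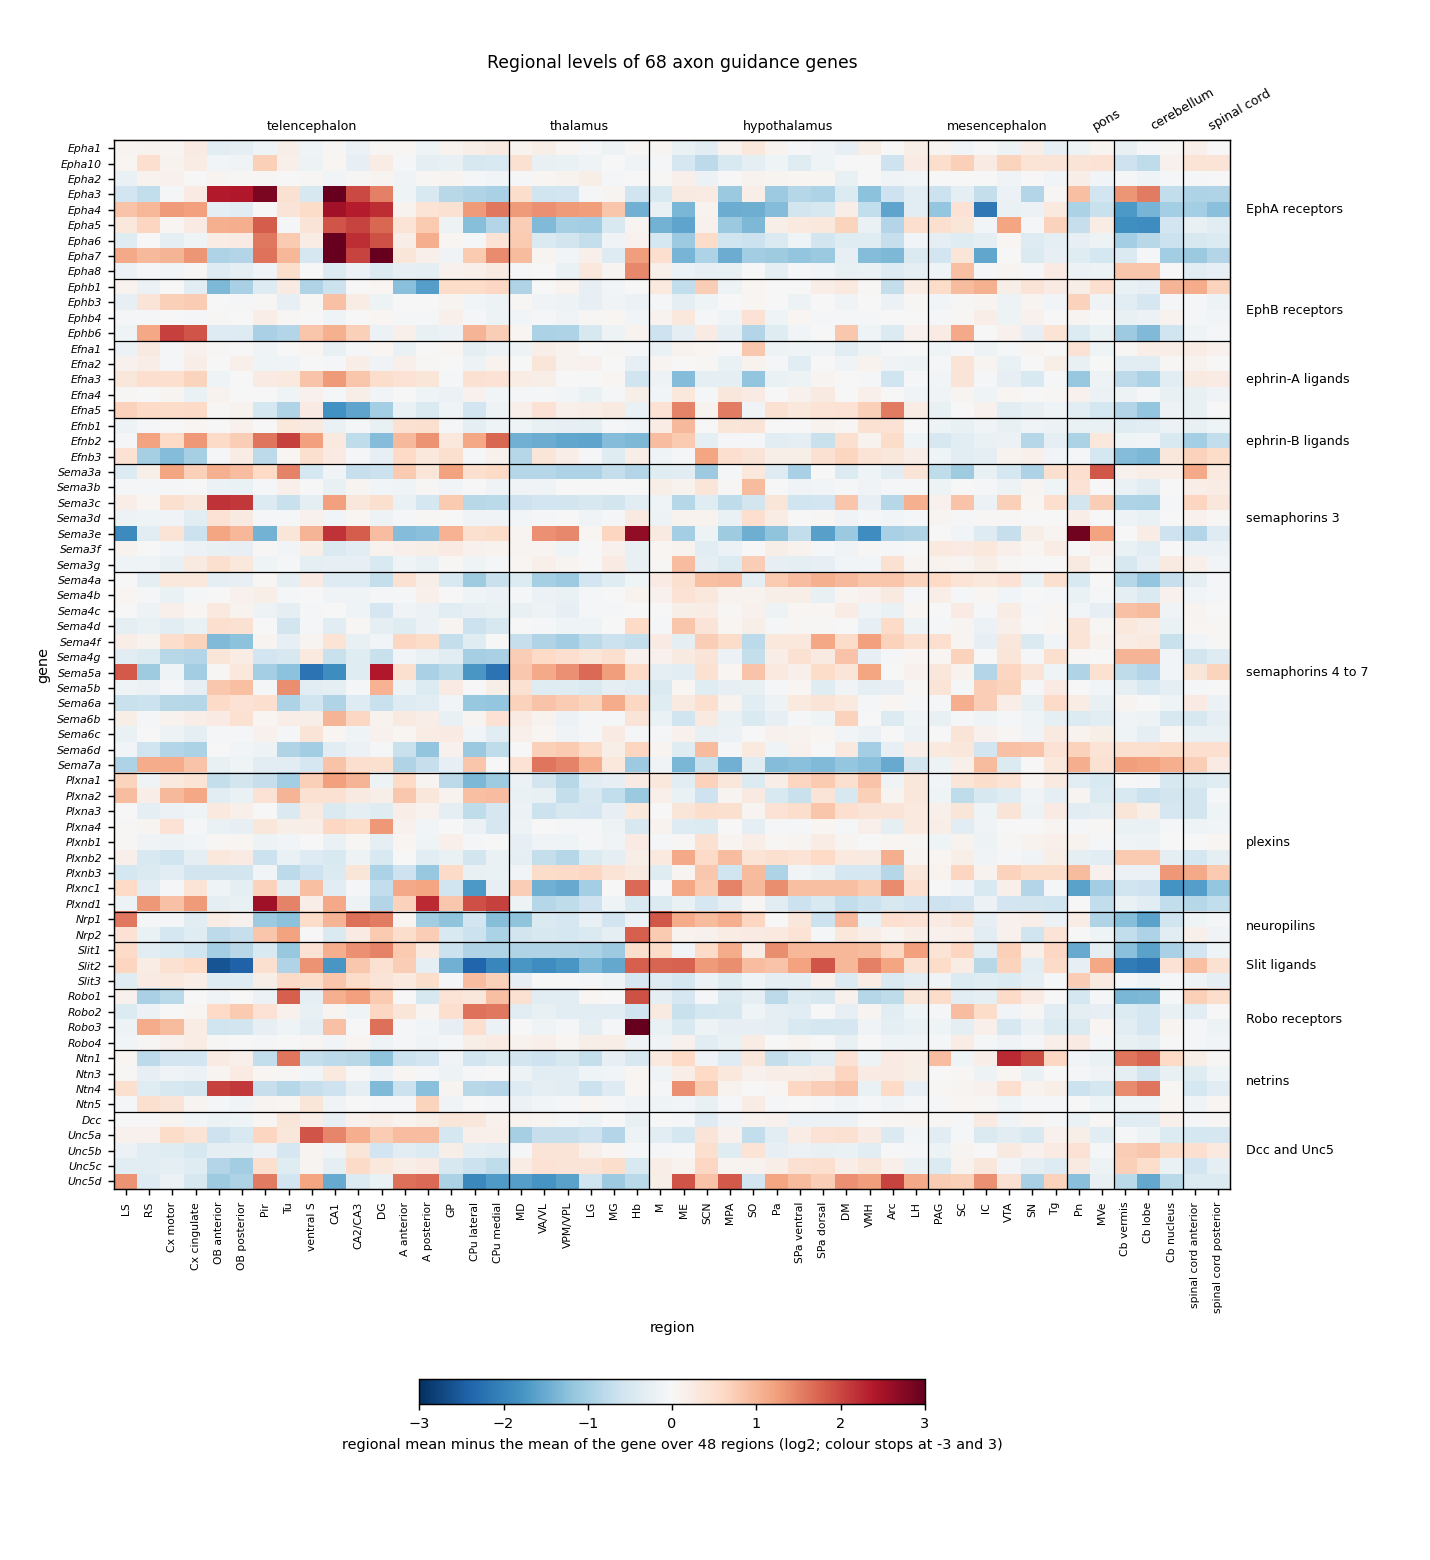
Each row is 1 of the 68 family genes, grouped by family, and each column 1 of the 48 regions, grouped by division; colour is the regional mean (2 arrays) minus the gene's mean over the 48 regions on the log2 scale, stopping at -3 and 3. EphA receptors stand out in the hippocampal columns, Robo3 in the habenula (Hb), and most rows are at or below their mean in the cerebellar columns.

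The families had no shared preferred division. The highest regional mean lay in the telencephalon for 27 genes (39.7%, against 35.5% of all genes) and in the hypothalamus for 22 (32.4%, against 30.97%). CA1, the output field of the hippocampus, was the highest region for 8 genes, SO, ME and Hb for 5 each. The lowest level lay in the lobe of the cerebellum for 12 genes and in the dentate gyrus (DG) for 7. Between 19 (SN) and 52 (CA1) of the 68 genes were called in a single region against the mean of the other 47, and 1741 pairs of gene and region were called in all, against 33.2% of such pairs over all genes. In CA1 26 genes were higher and 26 lower, and in the cerebellar lobe 14 were higher and 36 lower. The suprachiasmatic nucleus (SCN), the circadian clock of the hypothalamus, had the most genes called higher (29). Shares of all genes called, or at their highest or lowest, were not worked out for single regions. The counts of single regions therefore do not show that a region stands out for the family genes.

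Counts by division are read against the share of all genes called the same way, which follows each in brackets. In the telencephalon 26 family genes were higher (26.8% of all genes) and 28 lower (35.7%) than in the other 31 regions. In the hypothalamus 27 were higher (33.0%) and 28 lower (30.5%). In the thalamus 17 were higher (21.0%) and 35 lower (26.9%), so that about as many family genes as genes in general were higher and a larger part was lower. In the mesencephalon 24 were higher (22.2%) and 17 lower (16.8%). The cerebellum had 16 higher (25.7%) and 42 lower (34.7%), the most uneven split of the 7 divisions, and its median over the 68 genes was -0.19 against -0.053 over all genes. In the pons 16 were higher (23.6%) and 26 lower (18.6%), and in the spinal cord 15 were higher (22.5%) and 28 lower (21.5%).

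Within the telencephalon each part was set against the remaining telencephalic regions. In the olfactory bulb (OB) 23 genes were higher (28.3% of all genes) and 29 lower (30.8%). In the neocortex, here the motor (Cx motor), cingulate (Cx cingulate) and retrosplenial (RS) areas, 20 were higher (16.9%) and 21 lower (16.1%). In the hippocampal fields CA1, CA2/CA3 and DG 26 were higher (18.5%) and 20 lower (18.2%). In the striatum, taken as the lateral and medial caudate putamen (CPu) and the olfactory tubercle (Tu), 16 were higher (19.2%) and 31 lower (22.4%). The 11 comparisons share one fit, and the divisions are the reference of each other. Their p-values rest on the spread between arrays of a region and not on that among the regions of a division or part.

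**Figure D2:**
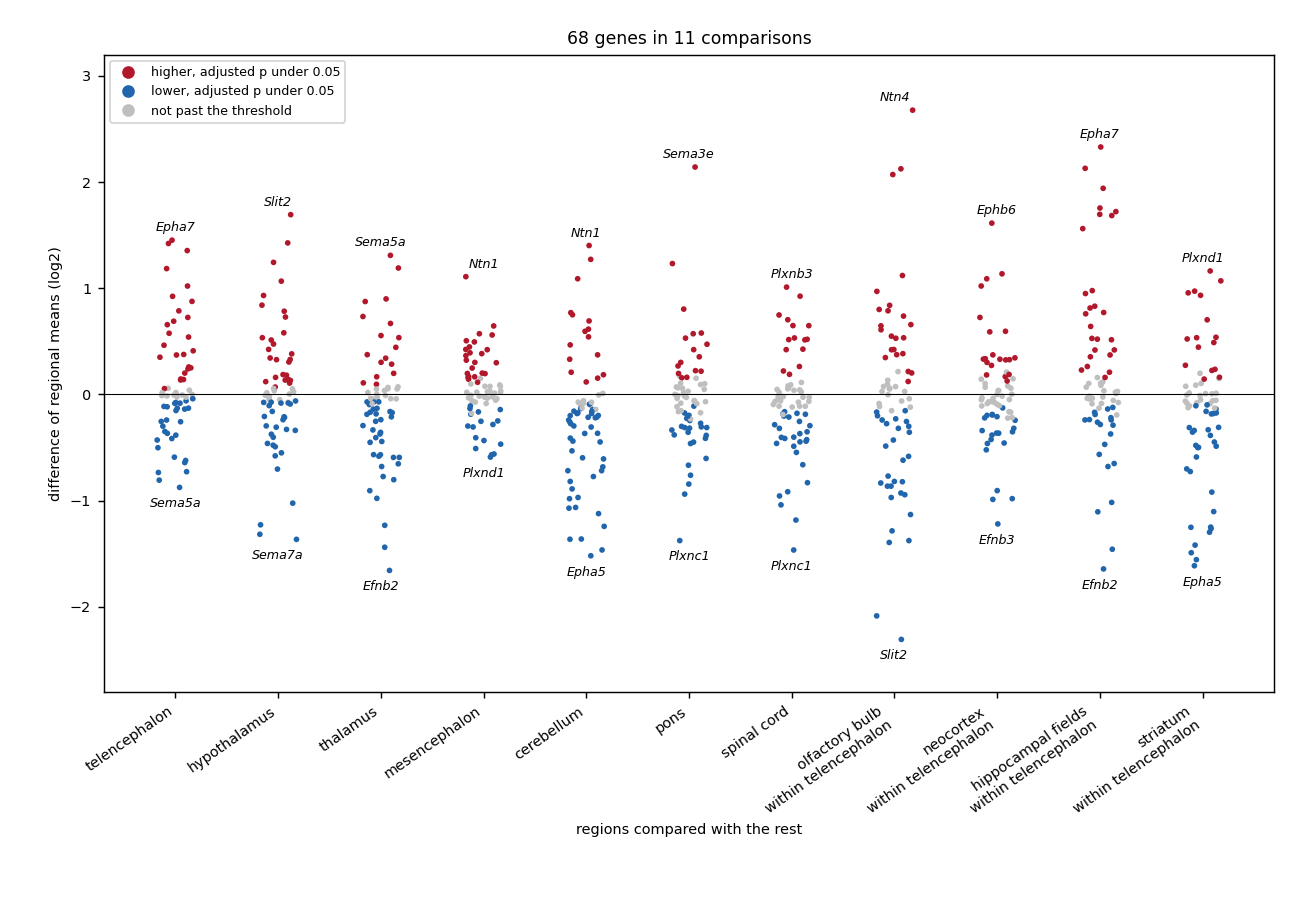
Each point is 1 of the 68 genes in 1 of 11 comparisons; the vertical axis is the difference of regional means on the log2 scale between the named regions and the rest (the rest of the telencephalon for the last 4). Red points were higher and blue points lower at a limma adjusted p under 0.05, grey points were not past it, and the widest spread is that of the olfactory bulb, from -2.31 (Slit2) to 2.68 (Ntn4).

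In the telencephalon 5 of the 9 EphA receptors (Epha3, Epha4, Epha5, Epha6 and Epha7) were higher by 0.88 to 1.45, Epha8 was lower (-0.13) and 3 were not called, and in the hypothalamus none was higher and 7 were lower (median of the 9, -0.49). Epha7, a receptor known to limit dendrites and to form short forms without a kinase domain, gave array values of 7.22, 9.22 and 11.58 (lowest, median and highest) in the telencephalon and of 6.51, 7.74 and 9.70 in the other regions. The difference of 1.45 (SE 0.040) had a limma adjusted p of 6.2e-38. Array ranges overlapped, with 6 of 17 telencephalic regions above every other region by their mean and the olfactory bulb within the range of the others.

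Within the telencephalon the same 5 receptors were higher in the hippocampal fields, by 1.56 to 2.33, and Epha8 was lower (-0.29). Epha7 gave 11.55 and 11.49 in CA1, 11.58 and 11.33 in DG and 10.17 and 10.29 in CA2/CA3, against 7.22, 9.03 and 10.06 (lowest, median and highest array) in the remaining telencephalon. All 6 hippocampal arrays were above all others, CA1 and DG did not differ beyond their arrays, and the difference was 2.33 (SE 0.084, limma adjusted p = 6.7e-31). Epha6 gave 10.37 and 10.44 in CA1, 9.48 and 9.51 in CA2/CA3 and 9.03 and 9.37 in DG, against 6.92, 7.50 and 8.98 elsewhere (difference 2.13, SE 0.064, limma adjusted p = 1.2e-34). Here too the groups did not overlap, and CA1 stood above the other fields. Epha3 gave 9.21 and 8.86 in CA1, but the piriform cortex (Pir), with 8.72 and 8.94, overlapped it, and the hippocampal range of 7.28 to 9.21 lay within that of the other telencephalic arrays but for the top value (4.87, 5.68 and 8.94). Its difference was 1.94 (SE 0.098, limma adjusted p = 2.3e-24), and 1.22 with the mean of its 4 probe sets.

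The olfactory bulb separated these receptors from each other. Epha3 was high there, with 8.33 and 8.49 in the anterior and 8.49 and 8.35 in the posterior part against 4.87, 5.70 and 9.21 (lowest, median and highest) in the other telencephalic arrays (difference 2.07, SE 0.12, limma adjusted p = 1.1e-22, and 0.89 within sampling periods). Only CA1 and Pir were higher. Epha7 was low there, with 7.33 and 7.22 in the anterior and 7.32 and 7.36 in the posterior part, below all other telencephalic arrays, which started at 7.65 (difference -2.09, SE 0.10, limma adjusted p = 1.1e-25). In the neocortex Epha6 was lower than in the rest of the telencephalon (6.97, 7.15 and 7.27 against 6.92, 7.69 and 10.44, difference -0.98, SE 0.064, limma adjusted p = 2.5e-19). Outside the telencephalon, Epha7 was lower in the spinal cord (7.14 and 7.04 in the anterior, 7.49 and 7.19 in the posterior part, difference -1.04, SE 0.096, limma adjusted p = 8.1e-14), and it was lower in the hypothalamus by its mean (-1.23), with 6.67, 7.08 and 9.09.

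Epha4, the EphA receptor that binds ephrins of both classes, gave 11.81 and 11.81 in CA1, 11.43 and 11.84 in CA2/CA3 and 11.55 and 11.48 in DG. Both CA1 arrays were above both DG arrays, CA2/CA3 overlapped each of them, and all 6 lay above the highest other telencephalic array (10.997). The order of the fields depended on the probe set, as other Epha4 probe sets were highest in DG (11.39, 10.64 and 8.78) or in CA1 (11.12). By the brightest probe set Epha4 gave 8.81, 10.13 and 11.84 over the whole telencephalon against 6.64, 8.63 and 10.76 (difference 1.42, SE 0.049, limma adjusted p = 3.2e-33). Its lowest level was in the inferior colliculus (IC), where the 2 arrays disagreed, with 6.64 and 7.64. Epha4 was lower in the cerebellum (difference -1.47, SE 0.097, limma adjusted p = 1.0e-19), where arrays ran from 7.42 to 8.29 within the range of the other regions, in the spinal cord (-1.18) and in the pons (-0.85). In the mesencephalon the difference of -0.56 was not kept when regions were compared within sampling periods (-0.17, limma adjusted p = 0.147).

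Epha5, a receptor for ephrin-A ligands, peaked in CA2/CA3 (11.40 and 11.63) with CA1 next (11.33 and 11.41), arrays of which touched. It was low in the cerebellum, where its lowest, median and highest arrays were 7.58, 7.67 and 8.91 against 7.68, 9.67 and 11.63 in the other regions (difference -1.52, SE 0.074, limma adjusted p = 1.3e-25). It was also low in the striatum against the rest of the telencephalon, with 8.04, 8.61 and 9.47 against 9.18, 10.15 and 11.63 (difference -1.61, SE 0.079, limma adjusted p = 1.8e-25). Most of the overlap came from the nuclear part of the cerebellum and from the olfactory tubercle. Epha8 had another map, with its top in Hb (9.41 and 9.03) and the superior colliculus (SC) next. Epha10 ranged over 1.50 and was highest in Pir, and the ranges of Epha1 (0.67) and Epha2 were below the median of all genes.

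Profiles of the receptors Epha3 to Epha7 over the 48 regions were related to different degrees. Pearson's r was 0.77 for Epha4 with Epha7, 0.75 for Epha5 with Epha6 and 0.73 for Epha6 with Epha7, but 0.26 for Epha3 with Epha4. These r values describe 48 regional means that share arrays, punches and cell make-up, and carry no test. The 5 measured of 6 excitatory forebrain neuron markers were also higher in the telencephalon (5 of 5, median 2.12) and in the hippocampal fields (5 of 5, median 2.02). The r of the receptors with the median of that list, taken after centring each marker, was between 0.485 (Epha3) and 0.657 (Epha7). The part of cell make-up in these differences was not tested.

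**Figure D3:**
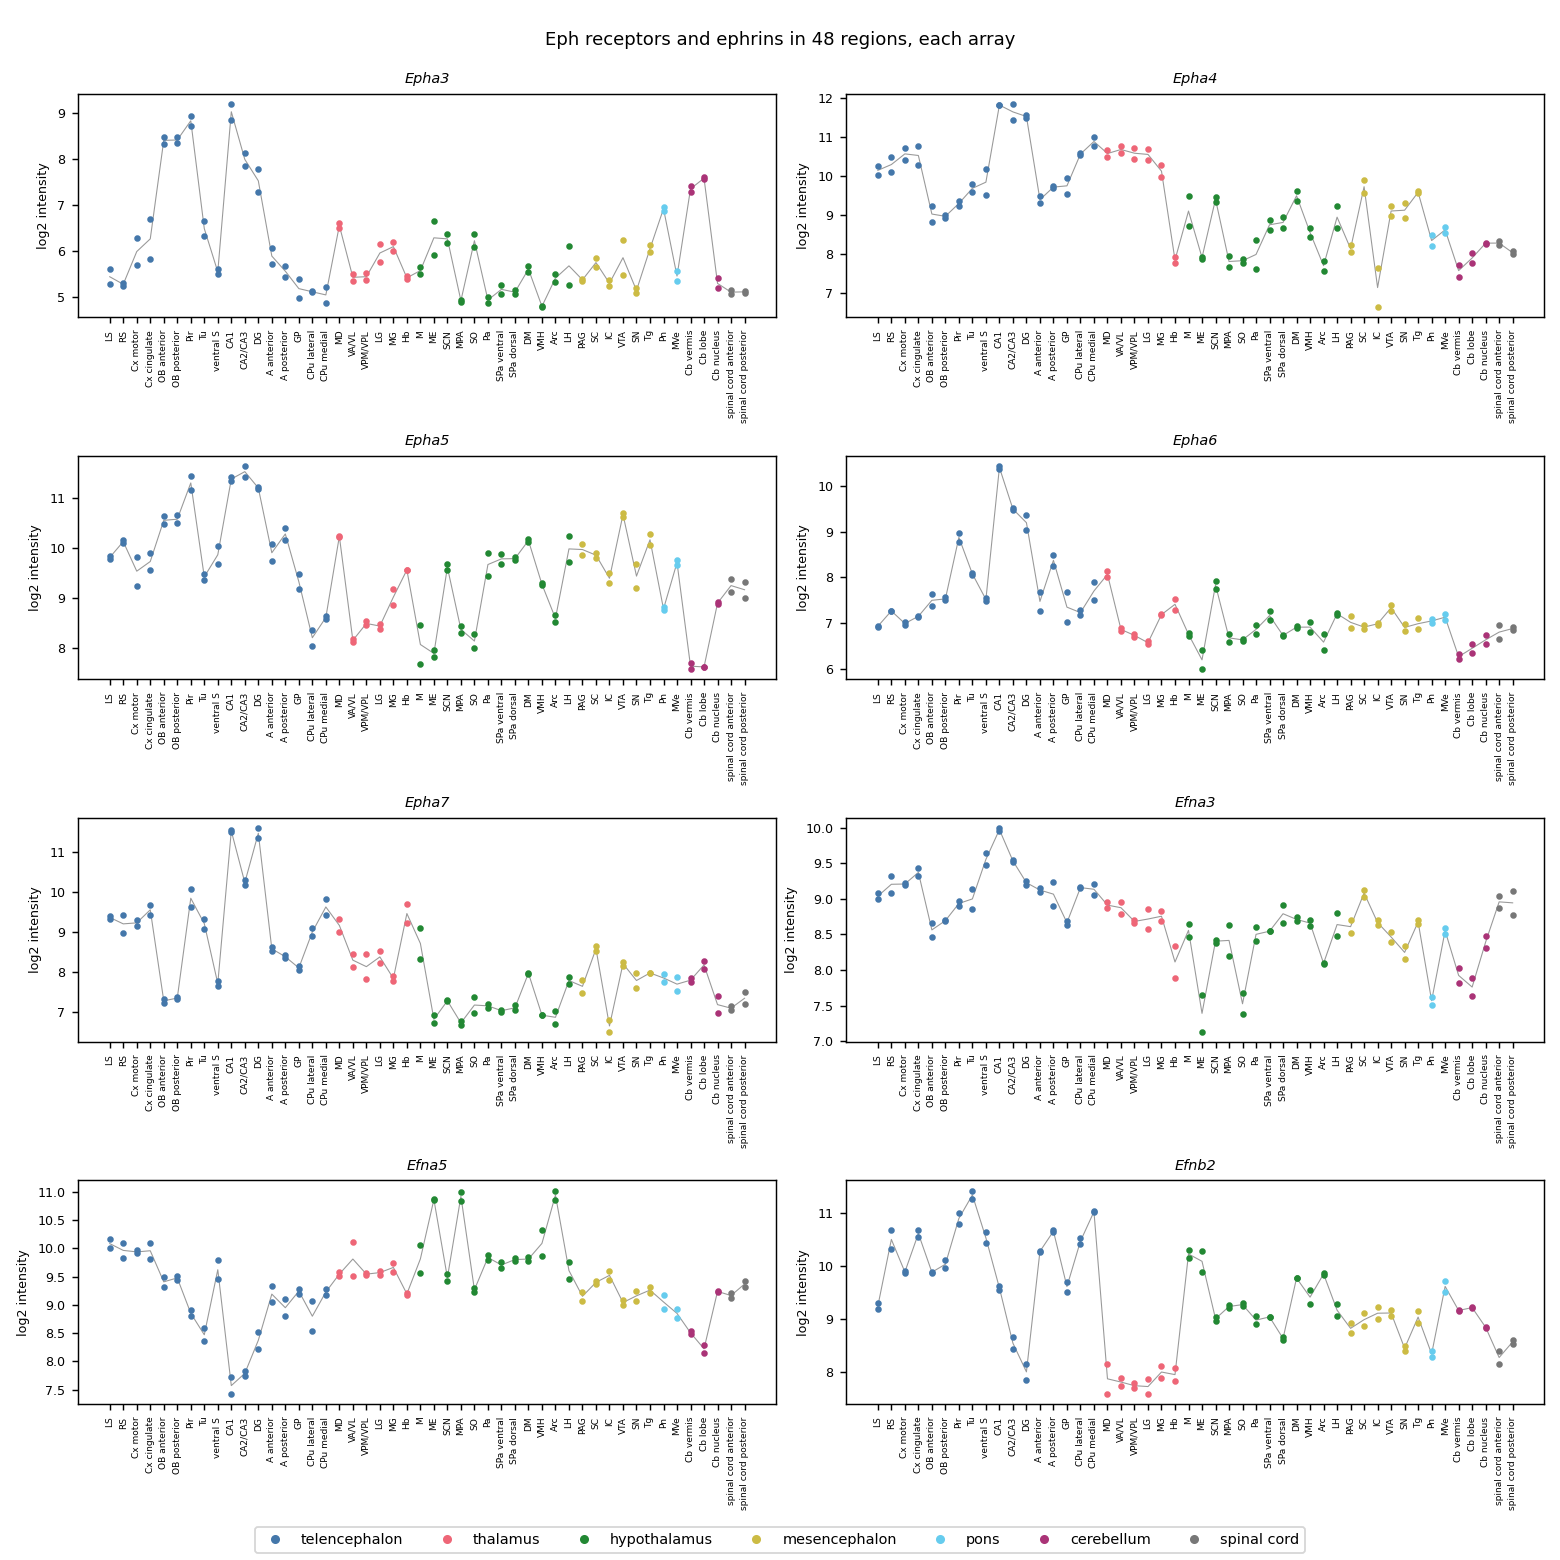
Each panel is 1 gene (Epha3, Epha4, Epha5, Epha6, Epha7, Efna3, Efna5 and Efnb2); the horizontal axis lists the 48 regions in order of division, the vertical axis is log2 intensity, each dot is 1 array coloured by division, and the grey line joins regional means. CA1 is at or near the top for the Eph receptors and Efna3 (9.96 and 9.99) and at the bottom for Efna5 (7.72 and 7.43).

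Ephrin-A ligands, the lipid-anchored partners of these receptors, did not share 1 map. Efna5, the ligand known from the retinal map in the tectum, was low in the hippocampal fields, with 7.72 and 7.43 in CA1, 7.83 and 7.75 in CA2/CA3 and 8.23 and 8.52 in DG. The remaining telencephalic arrays ran from 8.36 to 10.16 (median 9.33), so that a single DG array overlapped them. The difference was -1.46 (SE 0.068, limma adjusted p = 6.9e-26), and -0.78 with the mean of its 2 probe sets. Its highest levels were in the arcuate nucleus (Arc, 10.86 and 11.02) and MPA (10.85 and 10.99), which overlapped.

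Efna3 had the opposite place. It peaked in CA1 (9.96 and 9.99, 1.30 above the mean of the other regions, SE 0.099, limma adjusted p = 7.4e-17), and the ventral subiculum (9.47 and 9.64) came next without overlap. Efna1, an ephrin also made by vessel cells, was highest in SO (7.70 and 7.56), where the leptomeningeal and endothelial lists were high, and followed these lists with r of 0.555 and 0.636 over the 48 regions. What part those cells had in the Efna1 level was not tested. Efna2 (range 0.73) and Efna4 (0.56) were nearly level.

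EphB receptors and ephrin-B ligands divided the brain differently. Ephb6, an Eph receptor without kinase activity, was high in all 3 neocortical areas, with a lowest, median and highest array of 9.07, 9.83 and 10.04 against 6.78, 7.80 and 9.15 in the other telencephalic regions. By regional means every neocortical area was above every other region, though the lowest neocortical array lay under the highest other array, and the difference was 1.61 (SE 0.076, limma adjusted p = 2.2e-25). Ephb1, a receptor known for sorting retinal fibres at the optic chiasm, was highest in the spinal cord, with 10.40 and 10.65 in the anterior and 10.02 and 10.14 in the posterior part. The other regions ran from 7.25 to 10.59 (median 9.44), which overlapped, and the difference was 0.92 (SE 0.081, limma adjusted p = 1.2e-14). It was also higher in the mesencephalon (0.64) and in the striatum within the telencephalon (0.97). The vessel-related Ephb4 ranged over 0.64 and was highest in SO, and r with the leptomeningeal list was 0.613.

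Efnb2, an ephrin-B known for arteries and for synapses, was lowest in the thalamus. Arrays there were 7.58, 7.84 and 8.14 (lowest, median and highest) against 7.84, 9.27 and 11.42 in the other regions, and all 6 thalamic means lay below every other regional mean. Only DG, with 8.14 and 7.84, reached into the thalamic range. The difference was -1.66 (SE 0.040, limma adjusted p = 5.4e-40), and -0.87 with the mean of its 4 probe sets. Its top was Tu (11.25 and 11.42) and the medial CPu (11.02 and 11.01), and within the telencephalon it was higher in the striatum by 1.07 (SE 0.058, limma adjusted p = 3.9e-23) and lower in the hippocampal fields (difference -1.64, SE 0.058, limma adjusted p = 2.7e-31, and -1.03 with the mean of its probe sets). CA1 kept a middle level (9.62 and 9.54) where DG was low.

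Efnb3, which is known at the spinal midline, was low in the neocortex. Its arrays there were 8.77, 8.98 and 9.26 against 9.25, 10.26 and 10.77 in the remaining telencephalon (difference -1.22, SE 0.058, limma adjusted p = 4.0e-25), and all 3 areas lay below by their means. The highest level was in SCN (11.14 and 11.40), above the anterior spinal cord (10.82 and 10.76). All 3 ephrin-B genes were higher in the hypothalamus (0.12 to 0.47) and lower in the thalamus (-1.66 to -0.10), the mesencephalon, the cerebellum and the pons. Efnb1 was highest in ME (9.85 and 9.61), with the cerebellar vermis lowest.

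Secreted class 3 semaphorins, the ligands of the neuropilins, had 3 members of wide range. Sema3e, which binds Plxnd1 without a neuropilin, was highest in the pontine nucleus (Pn, 11.32 and 11.50) and then Hb (11.22 and 11.11). CA1 came next (mean 10.68), and the medial vestibular nucleus (MVe) gave 9.68 and 9.75. The other regions outside the pons ran from 6.53 to 11.22 (median 8.40). The difference for the pons was 2.14 (SE 0.12, limma adjusted p = 9.9e-22), and 1.20 with the mean of its 4 probe sets. Those values but the last are from the brightest probe set, and each of the other Sema3e probe sets was highest in CA1 (10.2, 8.13 and 9.46). Sema3e was low in the hypothalamus, with 6.53, 7.43 and 8.79 against 6.60, 8.79 and 11.50 elsewhere (difference -1.32, SE 0.056, limma adjusted p = 1.4e-28), and higher in the thalamus by 1.19 (0.67 with the mean of its probe sets).

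Sema3c marked the olfactory bulb, with 10.67 and 10.77 in its anterior and 10.70 and 10.65 in its posterior part against 7.66, 8.61 and 9.94 (lowest, median and highest) in the other telencephalic arrays. The groups did not overlap (difference 2.12, SE 0.082, limma adjusted p = 6.2e-30). Leptomeningeal markers were higher in the bulb too (11 of 12, median 1.14), and their part was not tested. Sema3a, the founding member of the class and a repellent of many axons, was highest in MVe (10.74 and 10.55) and gave 9.34 and 9.21 in Pn, against 7.59, 8.65 and 10.30 outside the pons (difference 1.23, SE 0.094, limma adjusted p = 1.2e-16). It was higher in the spinal cord by 0.75 (9.90 and 9.93 in the anterior, 9.08 and 9.07 in the posterior part, limma adjusted p = 1.3e-09), lower in the mesencephalon (-0.57) and lower in the hippocampal fields (-1.11). With the mean of its 3 probe sets the spinal cord and mesencephalic differences were 0.45 and -0.37. Sema3b, Sema3d and Sema3g were highest in SO or ME, where leptomeningeal markers were high, and r with that list was 0.609 for Sema3b and 0.671 for Sema3g.

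Among the semaphorins of classes 4 to 7, which are held in the membrane, 10 of 13 were lower and 1 higher in the striatum than in the rest of the telencephalon (22.4% and 19.2% of all genes). In the telencephalon as a whole 9 were lower and 3 higher (35.7% and 26.8%). Sema7a, a lipid-anchored semaphorin, opposed thalamus and hypothalamus. It gave 7.97, 8.45 and 9.78 in the hypothalamus against 8.37, 9.998 and 11.33 in the other regions (difference -1.37, SE 0.034, limma adjusted p = 8.3e-40, and -0.89 with the mean of its 2 probe sets), and 8 of 12 hypothalamic means lay below all others. The ventral thalamic nuclei were highest, with 11.33 and 11.20 in VA/VL and 11.14 and 11.16 in VPM/VPL, while Hb was low within the thalamus (8.37 and 8.77). Sema7a was higher in the cerebellum (10.73, 10.83 and 10.98, difference 1.27, SE 0.060, limma adjusted p = 6.0e-26), in the neocortex within the telencephalon (1.14) and in the pons (0.80). The pons value was 0.53 within sampling periods and 0.41 with the mean of its probe sets.

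Sema5a, a semaphorin with thrombospondin repeats, was highest in DG (11.31 and 11.34) and the lateral septal nucleus (LS, 10.65 and 10.90), and lowest in the ventral subiculum (6.81 and 6.62). In the thalamus its arrays were 9.34, 10.19 and 10.72 against 6.45, 8.91 and 11.34 in the other regions (difference 1.31, SE 0.085, limma adjusted p = 5.1e-20, and 0.83 with the mean of its 4 probe sets). In the telencephalon it was lower (difference -0.88, SE 0.059, limma adjusted p = 6.4e-20, and -0.45 with the mean of its probe sets), although DG and LS were its 2 highest regions, and 9 of 17 telencephalic means lay below all others. Sema6d gave 9.50, 10.16 and 10.90 in the telencephalon against 9.57, 11.10 and 11.69 elsewhere (difference -0.81, SE 0.020, limma adjusted p = 8.4e-40, and -0.37 with the mean of its 4 probe sets). Its r with the oligodendrocyte list was 0.729 over the 48 regions, and that list was lower in the telencephalon (14 of 14 measured markers, median -1.05). What part oligodendrocytes had in Sema6d was not tested.

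Sema6a, a transmembrane ligand of plexin-A receptors, was lower in the telencephalon (6.98, 7.64 and 8.87 against 7.77, 8.46 and 9.52, difference -0.74, limma adjusted p = 5.1e-31) and higher in the thalamus (8.73, 9.05 and 9.52, difference 0.90, limma adjusted p = 6.0e-27). With the mean of its 3 probe sets these were -0.36 and 0.54. Sema4f was lowest in the olfactory bulb (7.72 and 7.85 in the anterior, 7.99 and 7.75 in the posterior part), below all other telencephalic arrays (8.22 to 9.80), with a difference of -1.40 (SE 0.083, limma adjusted p = 1.8e-21). Sema4a was highest in the dorsal subparaventricular zone (SPa dorsal, 10.63 and 10.63), Sema4g in the cerebellar lobe (10.50 and 10.50), Sema6b in CA1 (9.20 and 8.90) and Sema4b and Sema4d in ME. Another Sema4d probe set had a wider range (1.81 against 1.46) and was highest in the anterior spinal cord. It followed the brightest with r of 0.36. Sema6c had the smallest range of the group (0.71).

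Plexins, the receptors of semaphorins, were lower in the thalamus for 8 of 9 genes, with 1 higher (26.9% and 21.0% of all genes). Plxnd1, the receptor of Sema3e, had the lowest adjusted p of the 68 genes for the telencephalon. Its arrays there were 6.63, 8.46 and 10.22 against 6.67, 7.07 and 7.65 in the other regions, and 12 of 17 telencephalic means lay above every other, whereas DG (6.77 and 6.63) lay below all of them (difference 1.35, SE 0.025, limma adjusted p = 2.8e-46). It peaked in Pir (10.02 and 10.22) and was higher in the striatum than in the rest of the telencephalon (9.05, 9.41 and 9.87 against 6.63, 8.37 and 10.22, difference 1.16, SE 0.053, limma adjusted p = 1.4e-26). In the mesencephalon it was lower by its mean (-0.59).

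Plxnc1, the receptor of Sema7a, was high in the hypothalamus and in Hb and low caudally. It gave 8.93, 10.47 and 11.13 in the hypothalamus against 7.56, 9.21 and 11.28 elsewhere (difference 1.24, SE 0.043, limma adjusted p = 4.7e-33), and its single highest region was Hb (11.28 and 11.13). In the pons it gave 7.94 and 7.85 (Pn) and 8.47 and 8.44 (MVe), against 7.56, 9.47 and 11.28 elsewhere (difference -1.38, SE 0.092, limma adjusted p = 8.1e-19, and -0.88 with the mean of its 6 probe sets). In the spinal cord it gave 7.99 and 7.72 in the anterior and 8.30 and 8.35 in the posterior part (difference -1.47, SE 0.092, limma adjusted p = 3.1e-20). Both caudal divisions overlapped the low end of the other regions.

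Plxnb3, a plexin known from oligodendrocytes, was the gene highest in the spinal cord relative to the other regions, with 10.37 and 10.60 in the anterior and 10.11 and 10.16 in the posterior part against 8.16, 9.26 and 10.70 (difference 1.01, SE 0.082, limma adjusted p = 6.5e-16). The nucleus of the cerebellum (10.70 and 10.57) was as high. Oligodendrocyte markers were higher in the spinal cord (14 of 14, median 1.90) and in the cerebellar nucleus (14 of 14, median 1.62). The r of Plxnb3 with the median of that list was 0.918, the highest of any of the 68 genes. Its part in the Plxnb3 differences was not tested. Plxna1 was lowest in the striatum, with all 3 regions below the other telencephalic regions (7.31, 7.53 and 7.77 against 7.84, 8.83 and 9.91) and CA1 highest (9.91 and 9.87). Plxna2 was highest in Cx cingulate by its brightest probe set, where its arrays differed (11.38 and 10.32). Other Plxna2 probe sets were highest in Tu (10.5 and 8.45) or in Cx cingulate (10.01). Those highest in Tu had wider ranges (2.42 and 2.76 against 2.27). Plxna4 was highest in DG (10.54 and 10.46) and Plxna3 in SPa dorsal (9.97 and 9.91). Plxnb1 was nearly level by its brightest probe set (range 0.74).

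Both neuropilins, the binding subunits for class 3 semaphorins and for vascular growth factors, were higher in the hypothalamus (0.78 for Nrp1, 0.33 for Nrp2), higher in the hippocampal fields (1.72 and 0.26) and lower in the cerebellum (-1.24 and -0.72). Nrp1 was highest in the mammillary body (M, 10.62 and 11.06), which overlapped CA2/CA3 (10.43 and 10.82). Nrp2 was highest in Hb (11.004 and 10.972, 1.84 above the mean of the other regions, SE 0.095, limma adjusted p = 1.3e-23) and next in Tu (10.33 and 10.48). The 2 profiles had r of 0.32 over the 48 regions. Neither was called in the telencephalon as a whole (-0.01 for Nrp1 and -0.03 for Nrp2).

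Slits and their Robo receptors went opposite ways in the hypothalamus, where Slit1 (1.07) and Slit2 were higher, Slit3 was lower (-0.33) and all 4 Robos were lower (-0.48 to -0.08). Slit2 gave 9.41, 10.20 and 10.91 there against 6.17, 9.03 and 10.79 in the other regions (difference 1.69, SE 0.048, limma adjusted p = 3.5e-37). Its top regions were SPa dorsal (10.82 and 10.92) and, just below it, Hb (10.79 and 10.77). Hb was an island in the thalamus, since the other 5 thalamic regions ran from 6.94 to 8.19. The thalamus as a whole was lower by its mean (difference -1.23, SE 0.062, limma adjusted p = 8.6e-25), and the value was -0.45 within sampling periods and -0.75 with the mean of its 3 probe sets.

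Within the telencephalon Slit2 was lowest in the olfactory bulb, with 6.53 and 6.26 in the anterior and 6.61 and 6.50 in the posterior part. The other telencephalic arrays ran from 6.17 to 10.38 (median 9.39), and only the lateral CPu, whose arrays were 7.03 and 6.17, reached as low (difference -2.31, SE 0.11, limma adjusted p = 3.0e-26, and -1.32 with the mean of its probe sets). It was lower in the striatum (6.17, 7.02 and 8.20, difference -1.56, SE 0.091, limma adjusted p = 6.2e-22, and -0.91 with the mean of its probe sets) and in the cerebellum (6.63, 6.95 and 9.50, difference -1.36, SE 0.085, limma adjusted p = 9.4e-21, and -0.80 within sampling periods), where the nucleus was higher than the lobe. It was higher in the neocortex (1.09, and 0.52 with the mean of its probe sets). Slit1 was highest in DG (10.65 and 10.35), overlapping the paraventricular nucleus (Pa, 10.35 and 10.49) and CA2/CA3 (10.40 and 10.38), and low in the pons (-0.94) and in the cerebellar lobe (7.63 and 7.21). Slit3 ranged over 1.44 and was highest in the lateral CPu.

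Robo3, the Robo known to let commissural axons cross the midline, was the only one of the 68 genes whose highest region stood at least 1 above the next. It gave 10.13 and 10.41 in Hb, while DG, next, gave 8.20 and 7.65, and RS 7.42 and 7.32. Hb was 4.09 above the mean of the other 47 regions (SE 0.095, limma adjusted p = 2.8e-40), with no overlap. The other probe set of Robo3 was flat (5.82 and 5.69 in Hb, range 0.49), and the mean of both gave 2.04. Robo1, the main Slit receptor of many neurons, was also highest in Hb (10.35 and 9.88) but overlapped Tu (9.95 and 10.05), and it was lower in the neocortex (7.07, 7.53 and 8.35 against 7.63, 8.34 and 10.05, difference -0.99, SE 0.096, limma adjusted p = 8.6e-13, and -0.50 with the mean of its 3 probe sets). Robo2 was highest in the lateral CPu (7.11 and 7.02), and its arrays in the medial CPu disagreed (7.65 and 6.39). Robo4, a Robo of blood vessels, ranged over 0.56, and its r with the endothelial list was 0.533.

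Netrins were all lower in the thalamus (4 of 4, -0.58 to -0.07, against 26.9% of all genes). Ntn1, the prototype netrin, was higher in the mesencephalon, with 7.64, 8.58 and 10.32 against 6.55, 7.46 and 9.60 elsewhere (difference 1.11, SE 0.049, limma adjusted p = 8.2e-27). The midbrain level came mainly from VTA (9.72 and 10.32) and SN (9.27 and 10.22), and arrays of each disagreed by more than is usual for these genes. All 7 dopaminergic markers were higher in both, and their part in the Ntn1 level was not tested. Within sampling periods the mesencephalic difference was 1.68, and it was 0.63 with the mean of its 2 probe sets. The cerebellum was also higher (8.20, 9.39 and 9.60, difference 1.40, SE 0.066, limma adjusted p = 4.7e-26), overlapping the midbrain.

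Ntn4, a netrin of basement membranes, was highest in the olfactory bulb, with 10.17 and 10.34 in the anterior and 10.34 and 10.34 in the posterior part. The remaining telencephalon ran from 6.75 to 8.70 (median 7.57), with no overlap, and the difference of 2.68 (SE 0.081, limma adjusted p = 5.6e-35) was the widest of the named differences of a division or part. The cerebellar lobe (9.86 and 9.76) came next over all regions, and the cerebellum was higher by 1.09 (SE 0.064, limma adjusted p = 8.7e-22). DG was lowest for both Ntn1 (6.55 and 6.61) and Ntn4 (7.04 and 6.75). Ntn3 ranged over 1.20 and Ntn5 over 0.88.

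Of the netrin receptors, Unc5d followed the hypothalamus and Unc5a the hippocampal output. Unc5d, a netrin receptor known from the layers of the cortex, gave 8.17, 10.06 and 11.22 in the hypothalamus against 6.69, 8.46 and 10.79 elsewhere (difference 1.43, SE 0.061, limma adjusted p = 2.4e-28), with Arc highest (10.73 and 11.22). It was lower in the thalamus (6.83, 7.50 and 8.49, difference -1.44, SE 0.080, limma adjusted p = 7.6e-23) and in the striatum within the telencephalon (6.69, 7.41 and 8.48, difference -1.49, SE 0.12, limma adjusted p = 1.5e-16). In the mesencephalon the difference of 0.57 turned to -0.15 within sampling periods (limma adjusted p = 0.286), so no direction is given there. Unc5a was highest in the ventral subiculum (10.70 and 10.86, 1.93 above the mean of the other regions, SE 0.078, limma adjusted p = 9.3e-28), without overlap with CA1 (10.38 and 10.29).

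Unc5b and Unc5c were highest in the cerebellum by their brightest probe sets. Unc5c gave 10.37 and 10.47 in the vermis and was nearly as high in SCN (10.28 and 10.38). Its other probe set was highest in the lateral geniculate (LG, 9.21) and had a wider range (2.31 against 1.74). All 3 cerebellar regions lay above every other for Unc5b (0.75, SE 0.036, limma adjusted p = 1.3e-25), whose r with the oligodendrocyte list was 0.733. Dcc, the attractive netrin receptor, looked flat by its brightest probe set, with a range of 0.75 and the globus pallidus (GP) highest. Its other probe sets, examined after the flat value was seen and given without a test, ranged over 4.42 and 4.24. The wider of them gave 9.72 and 9.17 in the medial CPu and 5.03 and 5.02 in the cerebellar lobe, and the other gave 9.45 and 10.03 in the lateral CPu, 9.66 and 9.61 in VTA and 5.45 and 5.55 in the cerebellar lobe. Over the 48 regions their r with the brightest probe set was 0.38 and 0.51.

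**Figure D4:**
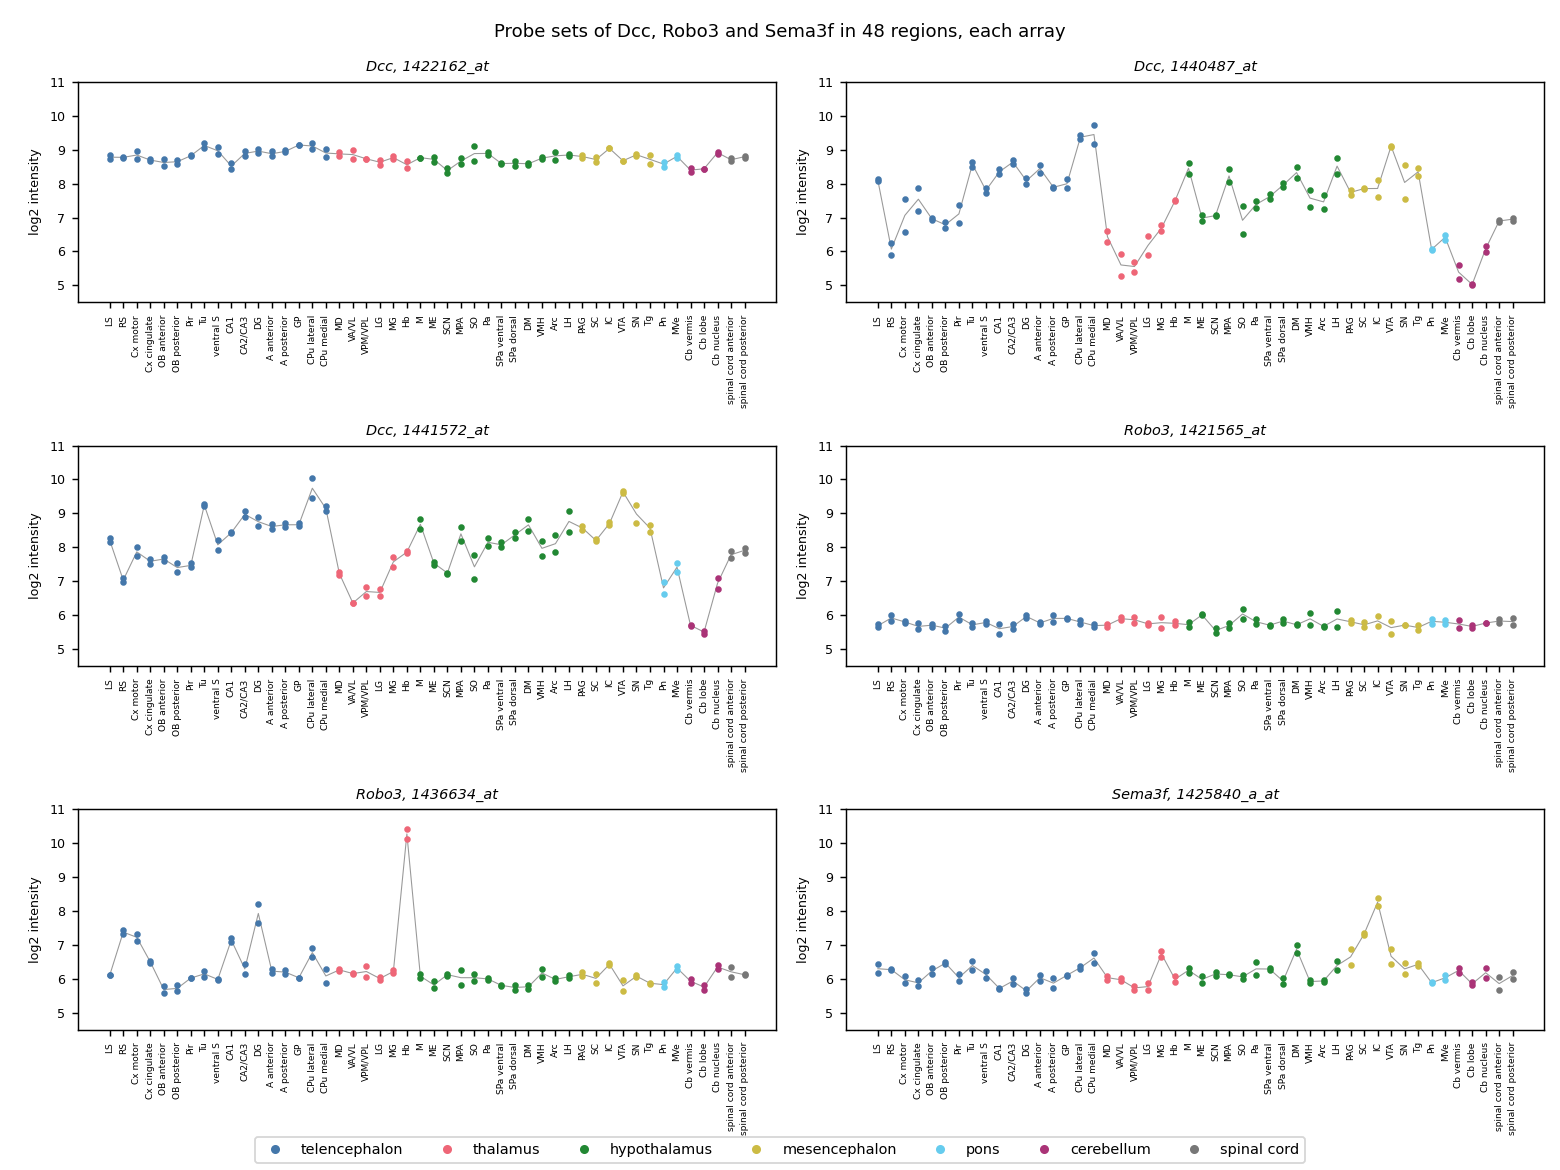
Panels show the probe sets of Dcc, Robo3 and Sema3f; the horizontal axis lists the 48 regions by division, the vertical axis is log2 intensity, and each dot is 1 array coloured by division. The brightest Dcc probe set is nearly level (range 0.75) where the other 2 range over 4.42 and 4.24, and for Robo3 the peak in the habenula is in 1 of 2 probe sets.

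How far 1 probe set stands for its gene varied. Among the 45 genes with more than 1 probe set, 51 of the 83 other probe sets followed the brightest with r of at least 0.8 over the 48 regions (median 0.854), 15 had r under 0.5 and 4 a negative r. For 5 genes (Dcc, Epha7, Plxnb1, Sema3d and Sema3f) another probe set had a range at least 1 wider. For Epha7 that probe set had the same map, with r of 0.98 and a range of 6.09. Sema3f looked level by its brightest probe set (range 0.75), but the widest of the others gave 8.14 and 8.37 in IC against 5.58 and 5.71 in DG. Sema3d had another probe set that was highest in the anterior olfactory bulb (7.84) with a range of 2.66. These wider probe sets were singled out after their values were seen.

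By the brightest probe set of each gene, known ligand and receptor pairs seldom shared a map. Of 40 pairs listed, 37 had both genes on the array, and Pearson's r over the 48 regional means had a median of -0.06, with 14 positive values, 2 of at least 0.5 and 10 of -0.3 or less. Over all 2062 pairs of genes from different families the median was 0.012, and shares of those pairs at these limits were not worked out. The counts are therefore not shown to be particular to ligands and their receptors. The probe sets used for Dcc, Sema3f and Plxnb1 were nearly level, so the r of their pairs may not stand for the genes. All such r describe regions that share arrays, depth of signal and cell make-up, with 48 points. Only 2 pairs had the same highest region by the probe sets used, Efna3 with Epha4 in CA1 and Slit3 with Robo2 in the lateral CPu. Most other Epha4 probe sets were highest in DG. For Efna3 and Epha4 r was 0.74, and it was 0.763 over the 17 telencephalic regions, 0.527 over the other 31 and 0.707 without CA1 and ME.

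Other pairs ran in opposite directions by the probe sets used. Sema7a and Plxnc1 had r of -0.82, with -0.605 in the telencephalon, -0.884 outside it, and -0.809, -0.787 and -0.834 within the 3 sampling periods of at least 8 regions. Hb shows the pattern in 1 region, with Plxnc1 at 11.28 and 11.13 and Sema7a at 8.37 and 8.77, and VA/VL shows the reverse, with Plxnc1 at 7.85 and 8.25 and Sema7a at 11.33 and 11.20. Sema6a and Plxna2 had r of -0.77, with -0.743 in the telencephalon and -0.508 outside it. Other Sema6a probe sets followed the one used with r of only 0.32 and 0.54. Other Plxna2 probe sets did so with r of 0.64, 0.97 and 0.81, and the pair was not read from any of these. Efna5 and Epha7 were less firm, with r of -0.55, -0.389 without CA1 and CA2/CA3, and -0.132 in the sampling period that held 17 regions. The r of Sema7a and Plxnc1 was the lowest of all 2062 pairs of genes from different families (median 0.012), and the highest was that of Unc5d and Sema4a (0.84).

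**Figure D5:**
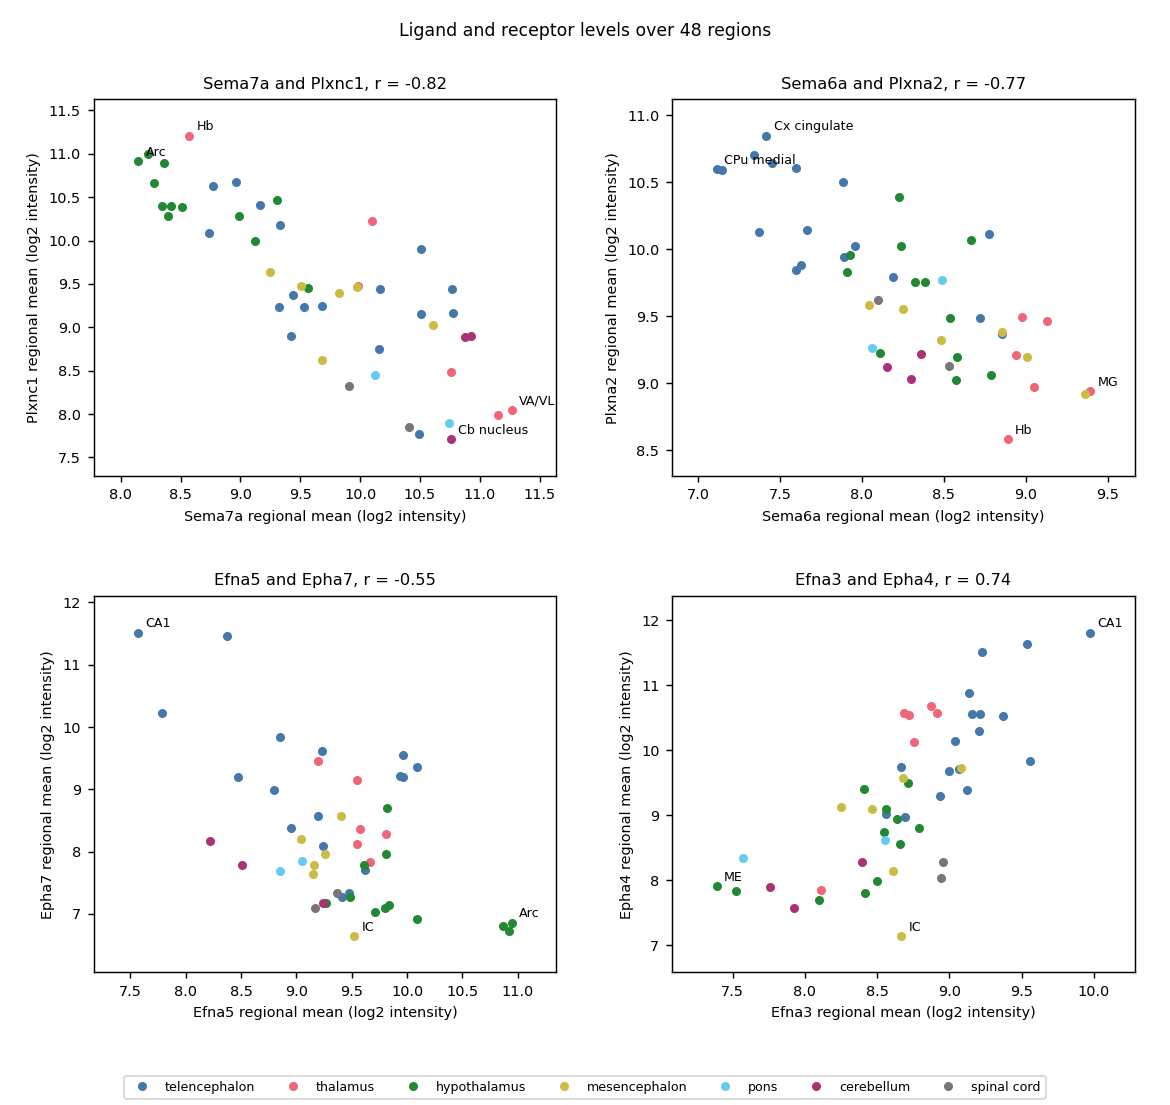
Each panel sets the regional mean of a ligand (horizontal axis, log2 intensity) against that of its receptor (vertical axis, log2 intensity); each dot is 1 of 48 regions, coloured by division, for Sema7a and Plxnc1 (r = -0.82), Sema6a and Plxna2 (r = -0.77), Efna5 and Epha7 (r = -0.55) and Efna3 and Epha4 (r = 0.74). Hypothalamic regions sit at the end with high Plxnc1 and low Sema7a.

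Belonging to a family did not give genes a common map. Over 216 pairs of the same family the median r was 0.033, against 0.012 for pairs of different families. The highest r was 0.78 among the plexins (Plxna3 and Plxnb2), 0.77 among the EphA receptors (Epha4 and Epha7), 0.72 among the semaphorins of classes 4 to 7 (Sema4g and Sema6a) and 0.68 among the Slits (Slit1 and Slit2). Sema4a and Sema7a ran against each other (-0.755), as did Epha1 and Epha3 (-0.454).

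Cofactors and signalling proteins of guidance, a list of 38 genes that holds for example ephexin and the Flrt and L1-type adhesion proteins, were also measured. Of these 37 varied among regions (93.1% of all genes; Draxin did not), with a median range of 1.82. With the shares of all genes in brackets, 19 were higher and 15 lower in the telencephalon (26.8% and 35.7%), 12 and 14 in the hypothalamus (33.0% and 30.5%), 14 and 12 in the thalamus (21.0% and 26.9%) and 16 and 11 in the mesencephalon (22.2% and 16.8%). The cerebellum had 12 higher and 15 lower (25.7% and 34.7%), the pons 7 and 17 (23.6% and 18.6%), and the spinal cord 10 and 16 (22.5% and 21.5%). In the striatum within the telencephalon 8 were higher and 20 lower (19.2% and 22.4%). Ngef, the ephexin that links Epha4 to the cytoskeleton, had the widest range (5.04), from 7.79 in the cerebellar lobe to 12.83 in the medial CPu as regional means, and was higher in the striatum by 1.94 (SE 0.053, limma adjusted p = 3.0e-37). Chl1, an adhesion partner in semaphorin signalling, ranged over 3.77 and was highest in VTA, and Lingo1 ranged over 3.46 and was highest in Cx motor. Flrt3, an adhesion protein that binds Unc5 receptors and Robo1, ranged over 3.01 and was highest in the medial CPu.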

How the data were processed

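Total RNA of punched regions was hybridised by the authors to Affymetrix mouse arrays, and the deposited values are log2 intensities that the authors summarised with RMA, version not given in the sources used here. A step common to all arrays of this kind is that RMA equalises the distributions of arrays, so that levels are relative to each array. The 64 control probe sets were left out, and 45037 were analysed. Of these, 34945 point to 1 gene, 932 to several and 9160 to none by the platform annotation given. The annotation was checked by gene ID against RefSeq, and no symbol changed. No column of another sample was present.

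From these values limma 3.58.1 in R 4.3.3 fitted 1 mean per region to 96 arrays (48 residual degrees of freedom), with moderated tests, and p-values were adjusted by Benjamini-Hochberg over all 45037 probe sets within each comparison. Calls use an adjusted p under 0.05. Divisions and parts were compared as equally weighted means of regions. The 2 arrays of a region are separate pools of many mice, so the p-values measure the spread between pools, and the number of arrays limits the precision. Differences among the regions of a division do not enter the p-values. A low p-value for a division therefore does not say that its regions are alike. Within the sampling periods of the study's region table (4 in all) regions were compared as an alternative, along with a replicate block, cyclic loess, a variance trend with robust estimation, a minimum highest regional mean of 7, the mean of all probe sets of a gene, adjustment over genes, and the omission of each array in turn. The fit was tested on simulated data. Promoter windows were read with Python 3.11.15.

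Members and lists were chosen with earlier results of these data known. Genes were named by rule: in each family the 3 with the largest range and the 1 with the smallest, in each comparison the 3 largest called differences in each direction, any gene whose top region stood at least 1 above the next, and any gene not past the F test. Any gene could be named by its highest region. Others given beside a family count were named after their values were seen.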

Additional observations from a re-analysis of the deposited data

Results flagged for a closer look

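Among the 6 arrays of the retina, pituitary and pineal gland, which took no part in the comparisons, 2 family genes lay at least 1 (log2) above every regional array. Efna1, an ephrin-A ligand, gave 9.16 and 9.31 in the retina (mean 9.23), where the highest regional array was 7.70, in the supraoptic nucleus. Sema3g, a secreted semaphorin known from vessels, gave 10.82 and 10.44 there (mean 10.63), where the highest regional array was 8.26, in the median eminence. These tissues were not in the fit, and no test was made.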

How the results depend on the processing

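The count of genes that vary among regions and the 12 counts of called genes stayed within 1.5 times their value in all 1103 alternatives run. Most of these alternatives left out only a single array. With each array left out in turn, genes that vary numbered 67 to 68, and called genes 52 to 55 in the telencephalon, 53 to 56 in the hypothalamus, 48 to 53 in the thalamus, 39 to 42 in the mesencephalon, 53 to 59 in the cerebellum, 32 to 43 in the pons, 38 to 44 in the spinal cord, 47 to 53 in the olfactory bulb, 37 to 44 in the neocortex, 43 to 48 in the hippocampal fields, 40 to 48 in the striatum and 1715 to 1760 over single regions. Without SO, ME, CA2/CA3 and MPA, an alternative chosen after seeing the data, the hypothalamic count was 51 and the hippocampal 49. Within sampling periods the neocortical count fell from 41 to 31.

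Replicate numbers did not pair the arrays in a common direction: over 1128 pairs of regions, 282 correlations of deviations were above 0.1 and 234 under -0.1. They ran from -0.57 to 0.53 (median 0.0072), so deviations were alike in some pairs of regions and opposite in others. A block by replicate number cannot take this up, and the limma p-values treat the arrays as independent. With the replicate number as a block the counts were 67, 53, 55, 52, 41, 58, 42, 43, 52, 41, 46, 47 and 1745, in the same order, and the block changed no call of a named gene.

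Of 67 named differences, 2 changed in 1252 alternatives, both within sampling periods in the mesencephalon: Unc5d reversed to -0.15 (limma adjusted p = 0.286) and Epha4 fell to -0.17 (limma adjusted p = 0.147). The cause was not tested. The mean of all probe sets moved several values by over 1.5 times, as given beside them. Probe sets are of unequal brightness, and values near the floor of an array understate differences.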

Other observations

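Outside the comparisons, 9 of the 68 family genes were above every regional array in both retinal arrays and 8 were below (13.9% and 7.99% of all genes). The counts were 4 and 8 in the pituitary (8.62% and 6.37%) and 2 and 11 in the pineal gland (10.9% and 7.16%). Plxnb2, a plexin of class 4 semaphorins, was above in all 3 tissues, with 11.72 and 12.42 in the retina, 11.52 and 11.35 in the pituitary and 11.60 and 11.79 in the pineal gland against a highest regional array of 11.15. Efnb3 and Sema4f were below in all 3. Efnb3 gave 7.16 and 7.41 in the retina, 7.20 and 7.26 in the pituitary and 7.62 and 7.78 in the pineal gland, against a lowest regional array of 8.58.

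In the retina the netrin Ntn4 (10.91 and 10.52) and the receptors Nrp1 (12.20 and 11.29), Robo4 (8.51 and 8.38) and Ephb4 (8.94 and 9.20) were also above every regional array. Epha5 (6.89 and 6.66), Epha6 (5.97 and 5.91) and Epha7 (6.42 and 6.36) were below, and the other receptors higher in the hippocampal fields, Epha3 and Epha4, were not. Epha4 was below every regional array in the pituitary (6.13 and 5.72) and in the pineal gland (6.57 and 6.51). Epha8 was above in the pineal gland (9.43 and 9.46), next to the highest regional array, 9.41 in the habenula.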
